A study of Homo sapiens with 6 samples.

Results

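The SMAD proteins carry signals of the TGF-beta family to the nucleus, and the SMURF proteins are ubiquitin ligases that mark SMADs and their receptors for degradation. The 10 genes described here are SMAD1 to SMAD7, SMAD9, SMURF1 and SMURF2, taken by gene symbol from a deposited table of 60605 genes. Each symbol matched 1 row. The cells were SW480, an epithelial line grown from a human colon cancer, and poly(A) RNA was sequenced. The TIPE group (3 libraries) had been infected with a lentivirus that overexpresses TIPE, the gene TNFAIP8, and the vector group (3 libraries) with the empty lentivirus. Cells of both groups grew in DMEM with fetal bovine serum, penicillin and streptomycin, and were selected with puromycin before RNA was taken. Neither the promoter that drives TIPE nor whether each library had its own infection or culture is stated in the labels. The p-values therefore measure only how far these libraries lie apart, and that spread may be technical.

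Ligands of the family bind pairs of receptor kinases at the cell surface. The receptors for TGF-beta and activin phosphorylate SMAD2 and SMAD3, and those for the bone morphogenetic proteins (BMPs) phosphorylate SMAD1, SMAD5 and SMAD9. These receptor-regulated SMADs then join SMAD4, the common partner, and bind DNA in the nucleus. SMAD6 and SMAD7, the inhibitory SMADs, are themselves switched on by the pathway and recruit the SMURF ligases to the receptors. SMAD4 is a tumour suppressor of the colon that lies on the long arm of chromosome 18, near SMAD2 and SMAD7, and SW480 is commonly used as a SMAD4-deficient line.

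The inhibitory SMAD genes are textbook targets of the SMADs, so the sequences at their start sites are shown here. Each is the RefSeq promoter window (GRCh38.p14) of 300 bases around the start site at which the deposited table places the gene's start. Lower case is plain sequence, and capitals mark GTCTAGAC, the palindromic SMAD-binding motif, which reads the same on both strands.
SMAD6, chr15:66701986-66702285, plus strand: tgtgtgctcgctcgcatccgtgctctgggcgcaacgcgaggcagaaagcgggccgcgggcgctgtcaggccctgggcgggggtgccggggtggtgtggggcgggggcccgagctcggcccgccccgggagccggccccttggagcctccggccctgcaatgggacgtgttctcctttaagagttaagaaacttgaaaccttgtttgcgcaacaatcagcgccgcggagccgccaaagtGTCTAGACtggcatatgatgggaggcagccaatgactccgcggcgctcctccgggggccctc
SMAD7, chr18:48950916-48951215, minus strand: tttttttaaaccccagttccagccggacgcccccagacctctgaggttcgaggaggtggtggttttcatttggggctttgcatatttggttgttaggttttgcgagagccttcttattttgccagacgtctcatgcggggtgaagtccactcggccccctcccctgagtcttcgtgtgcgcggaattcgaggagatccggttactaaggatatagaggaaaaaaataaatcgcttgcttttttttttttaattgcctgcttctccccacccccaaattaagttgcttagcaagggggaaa
The motif stands once in the SMAD6 window, starting 12 bases before the start site, and is not in this SMAD7 window. RefSeq holds 21 such windows for the 10 genes, and the SMAD6 window was the 1 window of these with the motif. Over all genes, 71 of 35116 windows (0.202%) held it. Sequence outside these windows was not searched, so the motif may lie elsewhere near a gene without it here. A match of letters is a description and says nothing about binding.

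Total counts were 13957349 to 20345330 in TIPE libraries and 14472231 to 19496484 in vector libraries, and mitochondrial genes took 5.92% to 7.06% of them in TIPE and 6.12% to 7.02% in vector libraries. TNFAIP8 was at 626, 571 and 530 FPKM in the TIPE libraries and at 1.34, 0.95 and 0.84 FPKM in the vector libraries. FPKM is the count scaled to exon length and to the library's total. Colon epithelial markers summed to 1608 to 1664 FPKM in TIPE and 1246 to 1341 FPKM in vector libraries, with the keratins KRT8, KRT18 and KRT19 highest, while CDX1 was at 0 counts and KRT20 was near 0. KRT8, KRT18, KRT19 (not called after removal of GC and length trends) and CDX2 rose, while CDH1 (E-cadherin) fell to 13.7 ± 0.875 FPKM in TIPE libraries, against 35.9 ± 1.31 FPKM in vector libraries, and EPCAM fell to 87.0 ± 12.8 FPKM in TIPE libraries, against 104.7 ± 2.80 FPKM in vector libraries (edgeR adjusted p = 4.14e-12 and 0.0309). The EPCAM call was lost when any 1 library other than TIPE replicate 3 was left out (highest adjusted p over the alternatives 0.173). Quantile normalization (limma) ended the calls of KRT8 and KRT19 (highest adjusted p over the alternatives 0.513 and 0.643). VIL1, at 16.9 ± 0.655 FPKM in TIPE and 19.0 ± 0.817 FPKM in vector libraries, did not pass (edgeR adjusted p = 0.185). Fibroblast markers summed to 2.36 to 3.33 FPKM in TIPE and 1.79 to 2.84 FPKM in vector libraries (COL1A2 and COL3A1 at 0 counts). LUM was the highest of them, at 2.22 ± 0.465 FPKM in TIPE and 1.94 ± 0.440 FPKM in vector libraries (edgeR adjusted p = 0.314). PDGFRB was at 0.535 ± 0.0219 FPKM in TIPE and 0.239 ± 0.0897 FPKM in vector libraries. In edgeR over all genes with at least 1 count it was called higher (adjusted p = 3.16e-07), but not in limma on log2(FPKM + 0.1) (adjusted p = 0.0736). Leukocyte markers summed to 0.639 to 0.973 FPKM in TIPE and 0.761 to 0.842 FPKM in vector libraries (PTPRC, CD163 and CD3E at 0 counts), and endothelial markers to 0.244 to 0.316 FPKM in TIPE and 0.147 to 0.208 FPKM in vector libraries (KDR at 0 counts). CD14 was the highest of the leukocyte markers, at 0.504 ± 0.212 FPKM in TIPE and 0.501 ± 0.0721 FPKM in vector libraries (edgeR adjusted p = 0.985). A change in the number of cells that carry a transcript and one in its amount per cell cannot be told apart in bulk RNA.

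The level of each gene in the vector libraries gives the baseline of these cells. By exonic length, SMURF1 was the most abundant of the 10 transcripts, at 13.4 ± 0.129 FPKM, followed by SMAD3 at 11.3 ± 0.274 FPKM (SD, n = 3 here and below). SMAD5 followed at 7.44 ± 0.316 FPKM and SMURF2 at 6.96 ± 0.415 FPKM, and the libraries of these neighbours overlapped. SMAD1 was at 2.70 ± 0.169 FPKM, SMAD6 at 2.12 ± 0.192 FPKM, SMAD7 at 1.57 ± 0.263 FPKM and SMAD2 at 1.15 ± 0.0109 FPKM, with no overlap between neighbours in this order. SMAD4 and SMAD9 lay about an order of magnitude lower, at 0.139 ± 0.00834 and 0.113 ± 0.0165 FPKM, and overlapped. Among the 14205 genes with a mean of at least 0.5 FPKM over the 6 libraries, SMURF1 stood at the 74.6th percentile of vector levels, SMAD3 at the 70.3rd and SMAD2 at the 16.6th. SMAD4 and SMAD9 were under that filter.

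**Figure D1:**
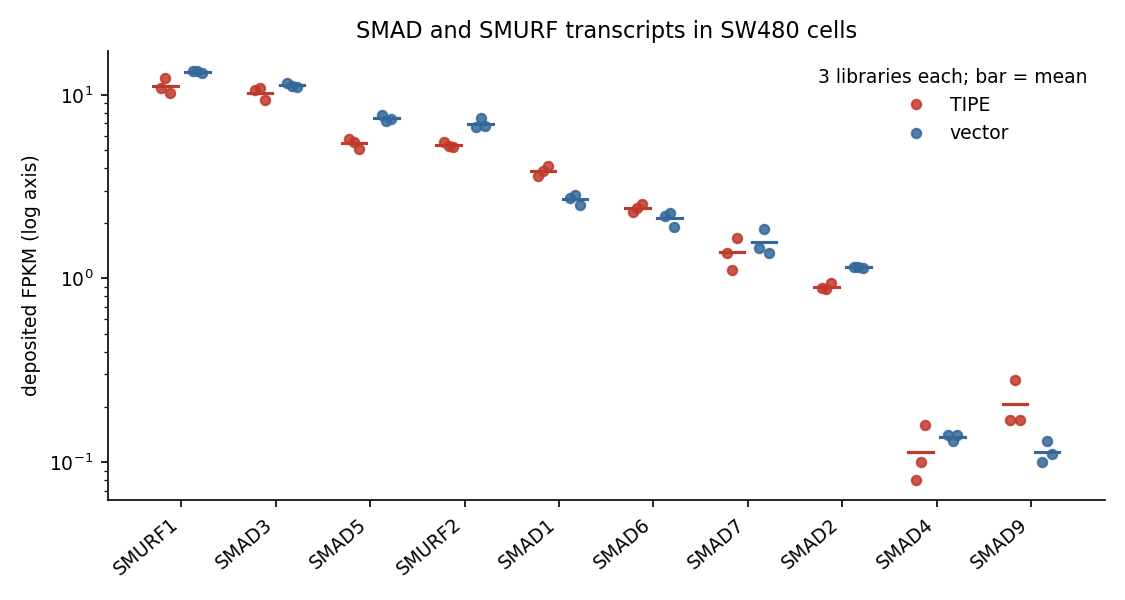
FPKM (log axis) of the 10 genes in each library, ordered by the mean of the vector libraries, with TIPE libraries in red left of vector libraries in blue and bars at the means. SMURF1 and SMAD3 are highest, SMAD4 and SMAD9 lie under 0.3 FPKM in every library, and SMAD1 is higher in TIPE libraries while SMAD5 and SMURF2 are lower.

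The order depends in part on the length by which counts are divided. SMAD2 has 36426 bp of exon in the deposited table, against 9981 bp for SMAD3, and the counts of SMAD2 summed to 2063 over the vector libraries, against 5541 for SMAD3. With the shortest transcript that GENCODE 29 tags as principal (12075 bp for SMAD2 and 1658 bp for SMAD1), SMAD2 was at 3.47 ± 0.0327 and SMAD1 at 11.6 ± 0.723 in the same unit, and 5 of the 10 genes kept their place in the order. With the longest such transcript 6 kept it. In each of these orders SMURF1, SMAD3, SMAD5 and SMURF2 took the first 4 places, SMAD1 and SMAD6 the next, and SMAD4 and SMAD9 the last. In TPM, and without any 1 vector library, all 10 kept their place.

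SMAD4 (ENSG00000141646, chromosome 18, 51028394 to 51085045, hg38), the partner shared by all receptor-regulated SMADs, was scarce in both groups. It had 17, 28 and 30 counts in TIPE libraries and 29, 33 and 27 counts in vector libraries, where a count of 0 would allow up to 3. That is 0.08, 0.10 and 0.16 FPKM in TIPE and 0.14, 0.13 and 0.14 FPKM in vector libraries, and the groups overlapped. Being under the filter, it was read from an edgeR fit over all 29836 genes with at least 1 count, where 20.1% of genes passed an adjusted p of 0.05 (10.1% higher and 9.93% lower). The log2 fold change of SMAD4 was -0.21 (95% interval -0.75 to 0.33, Benjamini-Hochberg adjusted p = 0.647), 0.0023 without TIPE replicate 1 and -0.030 after removal of trends on GC content and length (adjusted p = 0.979). Per length, SMAD4 stood at 0.0283 ± 0.0119 of the mean receptor-regulated SMAD in TIPE libraries and 0.0306 ± 0.00173 in vector libraries. SMAD4 overlaps ENSG00000267699, a protein-coding entry with 0 to 2 counts per library, on the same strand over 29751 bp. How reads shared by both were counted is not stated, and the part of this overlap in the SMAD4 level was not tested.

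The tested genes nearest SMAD4 on chromosome 18 were not scarce in the same way, as passing the filter requires. ME2, a mitochondrial malic enzyme on the side toward SMAD7, was at 3.04 ± 0.0109 FPKM in TIPE and 3.20 ± 0.0659 FPKM in vector libraries. MEX3C, an RNA-binding protein and the next tested gene past SMAD4, was at 5.43 ± 0.273 FPKM in TIPE and 6.33 ± 0.428 FPKM in vector libraries. ELAC1, a tRNA-processing nuclease between ME2 and SMAD4, was lower, at 0.623 ± 0.143 FPKM in TIPE and 0.793 ± 0.234 FPKM in vector libraries. From SMAD2 to SMAD4 the table lists 78 genes, of which 15 passed the filter, with vector levels of 0.681 to 15.2 FPKM and a median of 3.01 FPKM. The filter bounds this range from below. Under it, the protein-coding genes MRO, MAPK4 and LIPG were lower than SMAD4. They were at 0.00368, 0 and 0.00125 FPKM in TIPE and 0, 0.00675 and 0 FPKM in vector libraries. CFAP53, also under it, was higher than SMAD4, at 0.332 FPKM in TIPE and 0.366 FPKM in vector libraries. Of the 15 over the filter, CXXC1 and ACAA2 rose and SMAD2, DYM, MYO5B and SKA1 fell, which is close to the 41.5% called over all tested genes. MYO5B, a motor of apical recycling endosomes, had the smallest adjusted p of these neighbours, with a log2 fold change of -0.64 (edgeR adjusted p = 1.47e-06).

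**Figure D2:**
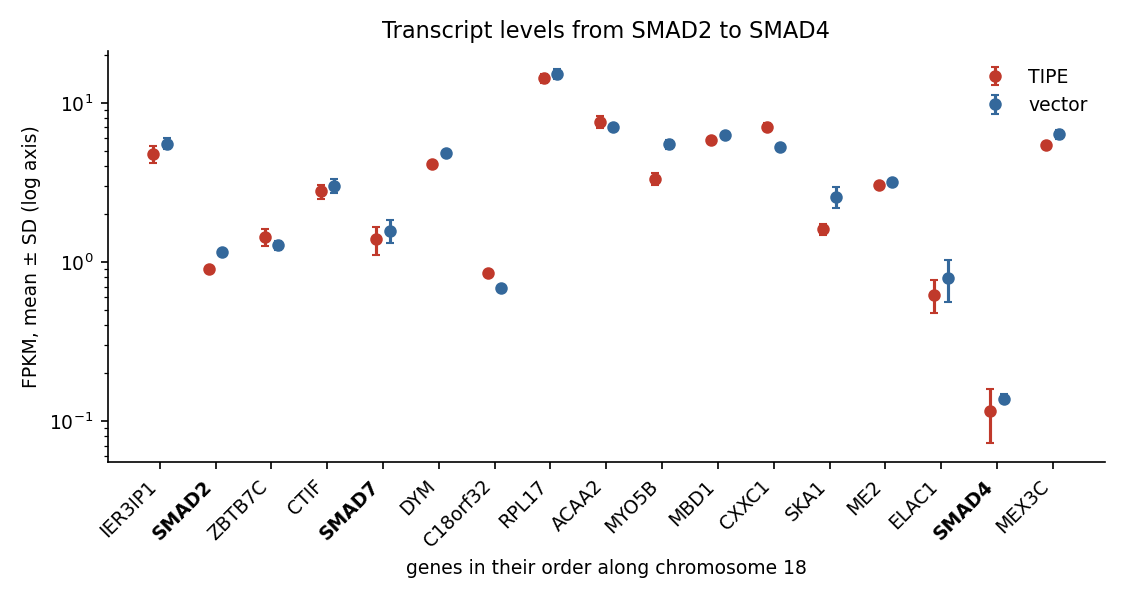
Mean FPKM ± SD (log axis, 3 libraries a group) of the genes over the expression filter from SMAD2 to SMAD4, in chromosome order, with SMAD4 itself and the next tested gene on each side, pseudogenes left out. TIPE libraries are red and left of vector libraries in blue. SMAD4, between ELAC1 and MEX3C, is the only gene shown from under the filter, so its lowest place follows from that choice of genes.

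Over the whole comparison, 8 of the 10 genes passed the expression filter and 6 of these 8 passed the test (edgeR's quasi-likelihood test, adjusted p under 0.05 over all 14205 genes), SMAD1 and SMAD6 higher and SMAD2, SMAD5, SMURF1 and SMURF2 lower in TIPE libraries. SMAD3 and SMAD7 did not pass. Over all tested genes 41.5% passed, 20.9% higher and 20.7% lower, so a called gene is common in this comparison. In FPKM the groups did not overlap for 7 of the 8 genes, against 50.5% of all tested genes. FPKM is scaled to library totals and not by the TMM factors of the test, and the 7 include SMAD3, which did not pass. The median log2 fold change of the 8 was -0.16, against 0.00 for all genes tested. With library totals in place of TMM factors the calls over all genes were 2134 higher and 3883 lower, against 2967 and 2935, and of the 8 genes SMAD1 alone was called higher, with the same 4 lower.

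Fold changes here followed the GC content of the transcripts. SMAD5, SMAD1, SMURF2 and SMAD2, with 36.9%, 39.2%, 39.3% and 40.2% GC in the longest transcript, belong to the lowest 20% of tested genes by GC, whose median log2 fold change was -0.21. SMAD6 and SMAD7, at 58.9% and 58.7%, belong to the highest 20%, with a median of 0.19. When the trends on GC and exonic length within each library were removed, 34.8% of all genes passed (17.5% higher and 17.3% lower), and so did 2 of the 8, SMAD1 higher and SMURF1 lower. Each of the 10 genes is therefore given with that value where it ends the call or moves the value by more than 1.5 times, and genes of the lists are named where it ends their call. Which of the values, with or without the trend, is nearer the amount of RNA in the cells was not tested.

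**Figure D3:**
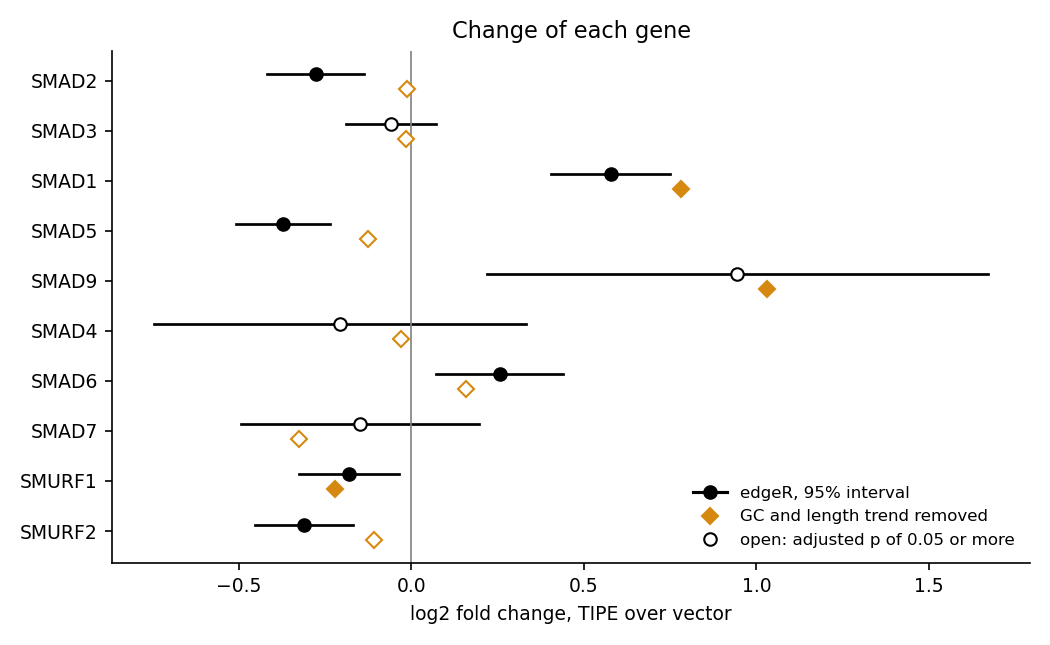
Log2 fold change of each gene, TIPE over vector. Black circles are edgeR estimates with 95% intervals, orange diamonds the estimates after removal of the GC and length trends, and open symbols have an adjusted p of 0.05 or more. SMAD1 lies to the right of 0 and SMAD5 to the left, and the diamonds of SMAD2, SMAD5 and SMURF2 are open and nearer 0.

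Among the SMADs of the BMP branch, SMAD1 and SMAD5 moved in opposite directions. SMAD1 (ENSG00000170365, chromosome 4, 145481194 to 145559176) was at 3.62, 3.84 and 4.10 FPKM in TIPE libraries and at 2.75, 2.84 and 2.51 FPKM in vector libraries. Every TIPE library was above every vector library. It rose 1.49-fold, a log2 fold change of 0.58 ± 0.08 (SE, edgeR adjusted p = 1.26e-05). SMAD1 passed in all 19 alternatives, with log2 fold changes of 0.39 to 0.78.

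SMAD5 (ENSG00000113658, chromosome 5, 136132845 to 136188747), close to SMAD1 in sequence and bound by the same receptors, was at 5.72, 5.56 and 5.08 FPKM in TIPE libraries and at 7.79, 7.17 and 7.35 FPKM in vector libraries. Every TIPE library was below every vector library. It fell, its log2 fold change being -0.37 ± 0.07 (SE, edgeR adjusted p = 0.000116). After removal of the GC and length trends the value was -0.13 (adjusted p = 0.123), and with the GC trend alone it was -0.15 (adjusted p = 0.0821). The ratio of SMAD1 to SMAD5 per length was 0.633, 0.691 and 0.807 in TIPE libraries and 0.353, 0.396 and 0.342 in vector libraries, without overlap. SMAD5 was the more abundant of the pair in all 6 libraries by exonic length, but this order rests on the length used: with the longest principal transcripts the mean ratio was 1.87 in TIPE and 0.959 in vector libraries.

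SMAD9 (ENSG00000120693, chromosome 13, 36844831 to 36920765), the least studied receptor-regulated SMAD of the BMP branch, had 16, 33 and 14 counts in TIPE libraries and 9, 15 and 9 counts in vector libraries. That is 0.17, 0.28 and 0.17 FPKM in TIPE and 0.10, 0.13 and 0.11 FPKM in vector libraries, with all TIPE libraries above the vector ones. In the fit over all genes with counts, its log2 fold change of 0.95 (95% interval 0.22 to 1.67) did not pass (edgeR adjusted p = 0.0531). It passed when TIPE replicate 1 (1.09, adjusted p = 0.0281) or TIPE replicate 3 (1.06, adjusted p = 0.0285) was left out and after removal of the GC and length trends (1.03, adjusted p = 0.0337). Leaving out TIPE replicate 2 gave 0.61 (adjusted p = 0.489).

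Of the SMADs of the TGF-beta branch, SMAD2 fell and SMAD3 did not pass. SMAD2 (ENSG00000175387, chromosome 18, 47808957 to 47931146) was at 0.89, 0.88 and 0.94 FPKM in TIPE libraries and at 1.16, 1.15 and 1.14 FPKM in vector libraries. The groups did not overlap. Its log2 fold change was -0.28 ± 0.07 (SE, edgeR adjusted p = 0.00233). It was -0.11 with the GC trend removed (adjusted p = 0.197), -0.034 with the length trend removed (adjusted p = 0.736) and -0.014 with both (adjusted p = 0.897). In limma on log2(FPKM + 1) the value was -0.18 (adjusted p = 0.0902).

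SMAD3 (ENSG00000166949, chromosome 15, 67063763 to 67195173) was at 10.58, 10.86 and 9.38 FPKM in TIPE libraries and at 11.58, 11.19 and 11.05 FPKM in vector libraries. The TIPE libraries were lower in FPKM by a narrow margin. After TMM scaling its log2 fold change was -0.06 (95% interval -0.19 to 0.07, edgeR adjusted p = 0.481), and it passed in none of the alternatives. It was -0.016 after removal of the GC and length trends (adjusted p = 0.843), 0.065 with the length trend alone removed and 0.0067 without TIPE replicate 3. Per exonic length, SMAD3 stood at 11.9, 12.3 and 9.98 times SMAD2 in TIPE libraries and at 10.0, 9.69 and 9.72 times in vector libraries, with overlap of the groups. In vector libraries this ratio was 5.20 with the shortest principal transcripts and 14.9 with the longest.

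SMAD2 and SMAD3 together per exonic length stood at 1.21, 1.21 and 1.10 times the sum of SMAD1, SMAD5 and SMAD9 in TIPE libraries and at 1.20, 1.22 and 1.22 times in vector libraries. The groups overlapped. This depends on the length: with the shortest principal transcripts the ratio was 0.597 ± 0.0353 in TIPE and 0.659 ± 0.00856 in vector libraries, with the longest it was 0.854 ± 0.0706 in TIPE and 1.02 ± 0.0192 in vector libraries, and with either the groups did not overlap.

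Of the inhibitory SMADs, which were scarcer than SMAD3 and SMAD5, SMAD6 rose and SMAD7 did not pass. SMAD6 (ENSG00000137834, chromosome 15, 66702236 to 66782849), which acts mainly on the BMP branch and whose start site carries the motif printed above, was at 2.30, 2.43 and 2.54 FPKM in TIPE libraries and at 2.20, 2.27 and 1.91 FPKM in vector libraries. The TIPE libraries were the higher ones, the lowest of them close to the highest vector library. Its log2 fold change was 0.26 ± 0.09 (SE, edgeR adjusted p = 0.0253). Leaving out TIPE replicate 2 (0.24, adjusted p = 0.0798), vector replicate 1 (0.27, adjusted p = 0.0527) or vector replicate 3 (0.19, adjusted p = 0.119) ended the call. It was also lost after removal of the GC and length trends (0.16, adjusted p = 0.199), with library totals (adjusted p = 0.114) and in DESeq2 (adjusted p = 0.0579).

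SMAD7 (ENSG00000101665, chromosome 18, 48919853 to 48950965), which blocks both branches, was at 1.38, 1.11 and 1.67 FPKM in TIPE libraries and at 1.46, 1.87 and 1.38 FPKM in vector libraries. The groups overlapped. Its log2 fold change was -0.15 (95% interval -0.49 to 0.20, edgeR adjusted p = 0.503). It was -0.33 after removal of the GC and length trends (adjusted p = 0.142), and 0.0049 without vector replicate 2. SMAD6 and SMAD7 together stood at 0.175, 0.165 and 0.214 of the sum of the receptor-regulated SMADs per exonic length in TIPE libraries and at 0.157, 0.184 and 0.148 in vector libraries, with overlap.

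Both SMURF ligases were lower in TIPE libraries. SMURF2 (ENSG00000108854, chromosome 17, 64542282 to 64662307), the ligase best known for its action with SMAD7 on the TGF-beta receptor, was at 5.52, 5.29 and 5.21 FPKM in TIPE libraries and at 6.70, 7.44 and 6.74 FPKM in vector libraries. The groups did not overlap. Its log2 fold change was -0.31 ± 0.07 (SE, edgeR adjusted p = 0.000927), or -0.11 after removal of the GC and length trends (adjusted p = 0.194). SMURF2 shares 180 bp with CEP95 on the opposite strand, and its pseudogene SMURF2P1 had 25 to 39 counts per library. CEP95 had 1106 to 1943 counts per library and a log2 fold change of -0.25 (edgeR adjusted p = 0.00160), and its part in the SMURF2 value was not tested.

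SMURF1 (ENSG00000198742, chromosome 7, 99027440 to 99144108), first described as a ligase for SMAD1 and SMAD5, was at 10.94, 12.41 and 10.18 FPKM in TIPE libraries and at 13.44, 13.42 and 13.21 FPKM in vector libraries. All TIPE libraries were lower, TIPE replicate 2 by the least. Its log2 fold change was -0.18 ± 0.07 (SE, edgeR adjusted p = 0.0421), and -0.22 after removal of the GC and length trends (adjusted p = 0.00680). Leaving out vector replicates 1, 2 or 3 ended the call (adjusted p = 0.0895, 0.103 and 0.0860), as did leaving out TIPE replicate 1 (-0.16, adjusted p = 0.103) or TIPE replicate 3 (-0.11, adjusted p = 0.116). Leaving out TIPE replicate 2 gave -0.28 (adjusted p = 0.00387). It was also lost in DESeq2 (adjusted p = 0.0582) and after quantile normalization (adjusted p = 0.0629). The table does not say whether counting used strand, and SMURF1 overlaps TRRAP, a scaffold of histone acetyltransferase complexes, on the opposite strand over 23392 bp. TRRAP had 1819 to 4423 counts per library and a log2 fold change of -0.38 (edgeR adjusted p = 0.00149), and its part in the SMURF1 value was not tested. The 770 tested genes of chromosome 7 had a median log2 fold change of -0.10.

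SMURF2 stood at 0.505, 0.427 and 0.512 of SMURF1 per exonic length in TIPE libraries and at 0.498, 0.554 and 0.511 in vector libraries, with overlap, so no shift between the ligases was detectable over this spread. With principal transcript lengths the mean ratio was 1.06 in TIPE and 1.14 in vector libraries.

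The genes whose log2 CPM followed SMAD1 most closely over the 6 libraries were COL2A1, PLRG1 and GPR183 (Pearson r = 0.998, 0.998 and 0.997). For SMAD5 they included POLR3B and DGKD (r = 0.998 and 0.997), and for SMURF2 they were ELMOD2, SENP2 and EIF1AX (r = 0.998, 0.997 and 0.996). With 6 libraries in 2 groups, 729, 624 and 598 tested genes reached an r over 0.95 with SMAD1, SMAD5 and SMURF2, so such a value mostly records the difference between the groups.

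The genes that act with or on the SMADs were examined in lists, whose counts are to be read against the 41.5% called over all tested genes (20.9% higher and 20.7% lower). Of 20 tested SMAD partners and corepressors, 2 rose, 9 fell and 9 did not pass, with a median log2 fold change of -0.09. The acetyltransferases CREBBP and EP300, coactivators that receptor-regulated SMADs recruit, had log2 fold changes of -0.66 (edgeR adjusted p = 2.21e-07) and -0.51 (adjusted p = 4.60e-06). RUNX3, a DNA-binding partner, and TRIM33, which binds SMAD2 and SMAD3 in competition with SMAD4, had values of -0.48 (adjusted p = 3.30e-06) and -0.50 (adjusted p = 4.87e-06). ZFYVE9 (SARA), which presents SMAD2 and SMAD3 to the receptor, its relative ZFYVE16, the corepressor NCOR1, RUNX1 (of the other sign with the length trend alone removed) and YY1 also fell, and TGIF1 and HDAC1 rose. The calls of TGIF1, HDAC1, RUNX1 and YY1 were lost without at least 1 library, and their highest adjusted p over the alternatives were 0.202, 0.223, 0.892 and 0.457. The corepressors SKI (0.02, adjusted p = 0.840) and SKIL (-0.19, adjusted p = 0.0808) did not pass, and the sign of each turned in some alternatives. After removal of the GC and length trends, 3 of the 20 were higher and 7 lower, and ZFYVE16, RUNX1 and YY1 were no longer called.

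Of 24 tested regulators of SMAD stability and phosphorylation, 8 rose and 8 fell, with a median of 0.07. USP11, a deubiquitinase of the type I receptor, rose to 37.8 ± 2.36 FPKM in TIPE libraries, against 25.7 ± 2.54 FPKM in vector libraries, a log2 fold change of 0.63 (edgeR adjusted p = 8.33e-07). GSK3B, a kinase of the SMAD linker, UCHL5, a deubiquitinase bound by SMAD7, and PMEPA1, which keeps SMAD2 and SMAD3 from the receptor, had log2 fold changes of -0.46, -0.44 and -0.33. BAMBI, a decoy receptor, OTUB1, STUB1 (of the other sign without the GC and length trends), CTDSP1, USP4, CSNK1G2 and ARIH2 also rose, and RNF111 (Arkadia, a ligase for SMAD7 and SKIL), USP9X, TOB1, and USP15 and PPM1A (both of the other sign without those trends) also fell. The calls of USP4, STUB1, TOB1 and ARIH2 were lost without at least 1 library, with highest adjusted p over the alternatives of 0.163, 0.935, 0.321 and 0.108. After removal of the GC and length trends, 6 of the 24 were higher and 4 lower, and OTUB1, STUB1, CTDSP1, CSNK1G2, RNF111, USP9X, USP15 and PPM1A were no longer called.

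Another list held the other NEDD4-family ligases, relatives of the SMURFs with the same HECT catalytic domain, and adaptors of these ligases. Of its 7 tested genes, none rose and 3 fell, with a median of -0.21. The share called was close to that over all tested genes. The 3 were NEDD4, at 6.14 ± 0.228 FPKM in TIPE and 9.45 ± 0.318 FPKM in vector libraries, the ligase ITCH and the adaptor NDFIP2, with log2 fold changes of -0.55, -0.30 and -0.29 (edgeR adjusted p = 5.30e-07, 0.000223 and 0.000242). NEDD4L, a ligase for phosphorylated SMAD2 and SMAD3, did not pass (0.07, adjusted p = 0.362), nor did WWP1 (-0.21, adjusted p = 0.0510) or WWP2 (-0.11, adjusted p = 0.185). After removal of the GC and length trends NEDD4L was higher, 2 of the 7 were lower, and ITCH and NDFIP2 did not pass.

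Of 9 tested receptors and co-receptors of the family, none rose and 4 fell, with a median of -0.23, again a share called close to that over all tested genes. BMPR1A, a type I receptor for BMPs, was at 4.68 ± 0.0989 FPKM in TIPE and 6.45 ± 0.138 FPKM in vector libraries. BMPR2, its type II partner, TGFBR1, the type I receptor for TGF-beta, and ACVR1B, that for activin, had values of -0.35, -0.38 and -0.23 on the log2 scale (edgeR adjusted p = 0.000252, 0.000903 and 0.00833). The call of ACVR1B was lost without vector replicate 2 (adjusted p = 0.0614). TGFBR2, the most abundant of the receptors, had a log2 fold change of -0.12 (edgeR adjusted p = 0.0795). Under the filter, BMPR1B was higher at 0.640 ± 0.127 FPKM in TIPE than at 0.213 ± 0.0685 FPKM in vector libraries (edgeR without the filter, log2 fold change 1.65, adjusted p = 7.50e-12), and ACVR1C lower (-0.67, adjusted p = 0.0181). ACVR1C lost its call without TIPE replicates 1 or 2, without vector replicate 2 and after removal of the GC and length trends. After removal of the GC and length trends none of the 9 was higher and 2 were lower, with TGFBR1 and BMPR2 no longer called.

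Of 20 tested immediate target genes of SMADs, among them SMAD6 and SMAD7 themselves, 9 rose and 3 fell, with a median of 0.20. TGFBI and ID1, a matrix protein and an inhibitor of bHLH factors induced by BMPs, had log2 fold changes of 0.58 and 0.75 (edgeR adjusted p = 9.92e-08 and 2.65e-07). KLF10, a zinc finger factor induced early by TGF-beta, fell to 34.6 ± 0.636 FPKM in TIPE libraries, against 51.8 ± 0.0744 FPKM in vector libraries. BAMBI, JUNB, HEY1, ID3, TGIF1 and SMAD6 were among the others that rose, and PMEPA1 and SNAI2 also fell. CDKN1A and CDKN2B, cell-cycle inhibitors, had log2 fold changes of -0.37 and -0.09 and did not pass (adjusted p = 0.0522 and 0.278). The calls of HEY1, ID3 and SNAI2 were lost without at least 1 library (highest adjusted p over the alternatives 0.111, 0.117 and 0.193). After removal of the GC and length trends, 6 of the 20 were higher and 4 lower, and JUNB, ID3 and SMAD6 were no longer called. Without SMAD6, SMAD7 and repeats, the 5 lists held 73 tested genes, of which 16 rose and 26 fell, and 9 rose and 21 fell without vector replicate 2. With library totals in place of TMM factors 11 rose and 35 fell, among them 6 receptors and 6 NEDD4-family genes that fell and 7 targets that rose beside 6 that fell.

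**Figure D4:**
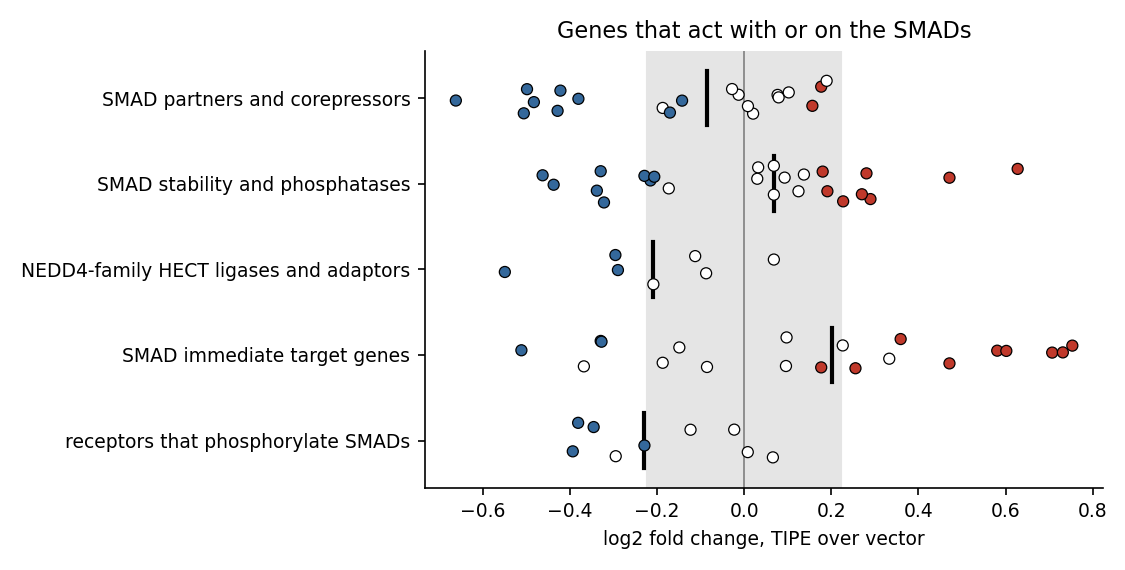
Log2 fold change (TIPE over vector) of each tested gene in the 5 lists, 1 point a gene, red where higher and blue where lower at an adjusted p under 0.05, open otherwise, with a black bar at each list's median. The grey band holds the middle 50% of all 14205 tested genes. The receptors and the NEDD4-family ligases hold no red point, and the target genes reach furthest to the right.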

How the data were processed

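The authors deposited 1 table with a raw count and an FPKM value per Ensembl gene and library, per the file headers. Every deposited FPKM value was recovered within 0.005 from the count, the table's exonic gene size and the library's total. HISAT2 2.0.1 and hg38 are named per the submitters' processing notes, while the counting tool, the annotation release and the strand setting are not named in these sources. Groups came from the treatment labels. The 14205 genes whose FPKM averaged 0.5 or more over the 6 libraries were tested on the counts with edgeR 4.0.16 (R 4.3.3), TMM factors and the quasi-likelihood test with group as the only term, and p-values were adjusted by the Benjamini-Hochberg method. SMAD4 and SMAD9 came from the same fit over genes with at least 1 count. Standard errors are the absolute log2 fold change over the square root of F. Alternatives used limma 3.58.1, DESeq2 1.42.0 and trends on GC content (GENCODE 29, 99.4% of tested genes). Promoter windows came from RefSeq. From each list up to 4 called genes with the smallest adjusted p are given with values and the other called genes by name, and genes named that did not pass were chosen after their values were seen. A few genes that this rule names are not reported here. The members and lists were chosen with earlier results of these data known. Protein sequences were not used here. Replicates were not repeat deposits of 1 library: their chi-square per gene was 2.32 or more. Intervals cover the spread between libraries, and the floor of 3 counts covers counting error only.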

Additional observations from a re-analysis of the deposited data

How the results depend on the processing

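Of the 10 genes, 2 were called higher and 4 lower. The number called higher was 1 with library totals in place of TMM, in DESeq2 and in limma on log2(FPKM + 1) or log2(FPKM + 0.1). The number called lower was 1 after removal of the GC and length trends, 1 with that and a replicate block together, 1 with the GC trend alone removed and 2 with the length trend alone removed (the last 2 settings, and those on transcript length below, were chosen after seeing the data). Leaving out each library in turn gave 1 to 3 higher and 3 to 4 lower. Values of genes that did not pass changed sign for SMAD3 (0.065 with the length trend removed, and -0.11 to 0.0067 without 1 library), SMAD4 (-0.48 to 0.0023 without 1 library) and SMAD7 (-0.29 to 0.0049 without 1 library). The cause was not tested. In the 5 lists 16 genes rose, or 9 to 19 without 1 library. Over all genes 2967 were higher, against 1912 and 1902 in limma on log2(FPKM + 1) and log2(FPKM + 0.1). With principal transcript lengths, 6 (longest) and 5 (shortest) of the 10 genes kept their place in the baseline order. The vector ratios with the shortest and longest transcripts were 5.20 and 14.9 for SMAD3 to SMAD2 (9.81 by exonic length), 0.659 and 1.02 for the TGF-beta to the BMP branch (1.21), 0.0198 and 0.0272 for SMAD4 to the mean receptor-regulated SMAD (0.0306) and 0.553 and 0.959 for SMAD1 to SMAD5 (0.364). The ratio of SMURF2 to SMURF1 was 1.14 with either (0.521), and that of the inhibitory SMADs to the receptor-regulated SMADs was 0.113 with the shortest (0.163). A replicate block left 2 genes higher and 4 lower, and 5601 of all genes passed with it, against 5902 without it. Same-numbered libraries did not deviate together, with correlations of -0.0057, -0.020 and -0.051 between the groups, so no pairing by number was detectable. These values cannot exclude that same-numbered libraries shared a culture or batch, which the labels do not state. SMAD4 and SMAD9, with at most 33 counts per library, limit what can be seen of a change.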

Other observations

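The antisense and intronic transcripts named for the SMADs were close to absent. SMAD1-AS1 and SMAD9-IT1 had 0 counts in all 6 libraries, SMAD1-AS2 had 0 to 1 count per library and SMAD5-AS1 had 0 to 2. SMAD6 and SMAD3 lie on the same strand of chromosome 15 with 281 kb between them, and their log2 fold changes were 0.26 (edgeR adjusted p = 0.0253) and -0.06 (adjusted p = 0.481).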
